A study of Mus musculus with 2 samples.

Results

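The STAT proteins carry signals from cytokine receptors to the nucleus, and 6 genes that encode them (Stat2, Stat3, Stat4, Stat5a, Stat5b and Stat6) were followed here. They were chosen by gene name, and all 6 were found among the 34745 genes of the deposited table. RNA from mouse monocytic myeloid-derived suppressor cells (M-MDSC) was sequenced with no replicates, as 1 library for each of 2 conditions. Bone marrow cells of mice aged 6 to 8 weeks were kept in culture until day 7 in 50 ng/ml GM-CSF alone (CHBP- M-MDSC, strain given as C57BL/6) or with GM-CSF and CHBP, a cyclic peptide derived from erythropoietin (CHBP+ M-MDSC, strain given as C57BL/7), and were then sorted by flow cytometry. The methods give 1 strain, C57BL/6, for both cultures, and strain, culture and treatment cannot be told apart with 1 library each. No allele or transgene is given for either sample.

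In a resting cell, STAT proteins wait in the cytoplasm. A cytokine that binds its receptor activates the Janus kinases (JAK) bound to it, which phosphorylate a STAT on a tyrosine, and paired STAT proteins then enter the nucleus and bind DNA. The GM-CSF and erythropoietin receptors act mainly through Jak2 and STAT5, IL-6 and G-CSF through STAT3, IL-4 and IL-13 through STAT6, IL-12 through STAT4, and type I interferons through STAT2 with Irf9. STAT3 and STAT5 are best known in MDSC for their part in expansion and suppressive function. Sequencing measures the mRNA of these genes and not their phosphorylation.

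The CHBP- library held 16484504 reads and the CHBP+ library 16280466, and a count of 0 allows up to 0.182 and 0.184 CPM (reads scaled to the library total), the level of 3 reads. The sorting marker Itgam (CD11b), listed under 2 identifiers, was at 157 and 100 FPKM in CHBP- M-MDSC and at 232 and 153 FPKM in CHBP+ M-MDSC. Ly6c2 was at 56.9 and 34.0 FPKM, and Ly6g, which the gate excludes, was at 2.19 and 2.12 FPKM. The T cell list (6 genes) summed to 4.82 and 3.83 FPKM and the NK cell list (4 genes) to 2.20 and 2.47 FPKM, with no read on Ncr1. The granulocytic list (5 genes) summed to 165 and 122 FPKM, the B cell list (4 genes) to 39.7 and 26.1 FPKM, the mast cell and basophil list (4 genes) to 200.2 and 172 FPKM, and the erythroid list (5 genes) to 1283 and 586 FPKM. The dendritic cell list (5 genes) summed to 128 and 158 FPKM and the monocyte and macrophage list (5 genes), with Lyz2 the highest, to 10237 and 8322 FPKM. All but the T cell, NK cell and dendritic cell lists had every gene at 1 FPKM or more in at least one library. The part of these other cell types in the results that follow was not tested.

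All 6 Stat genes were expressed above 1 FPKM in both libraries, and Stat6 was the most abundant. Stat6, the factor of IL-4 and IL-13 signalling, was at 48.5 FPKM in CHBP- M-MDSC and 51.8 FPKM in CHBP+ M-MDSC, higher than 91.4% and 92.7% of the genes kept. Stat6 alone held 40.5% of the reads of the 6 genes in CHBP- M-MDSC (exact Clopper-Pearson 95% interval 39.6% to 41.5%) and 39.4% in CHBP+ M-MDSC (38.5% to 40.3%). Genes kept are the 10948 that reached 1 FPKM in either library.

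By deposited FPKM, Stat6 was followed in CHBP- M-MDSC by Stat5b (15.8 FPKM), Stat2 (11.8), Stat3 (10.5), Stat4 (8.41) and Stat5a (6.02). The order in CHBP+ M-MDSC was the same, with Stat5b at 18.2, Stat2 at 14.0, Stat3 at 12.1, Stat4 at 9.38 and Stat5a at 5.74 FPKM. No 2 neighbours in this order had overlapping counting intervals in either library. This order rests on the gene length that the authors divided by. That length, recovered from the deposited counts and FPKM, was 15739 bases for Stat3 and 9981 for Stat5a, whereas their longest GENCODE M1 protein-coding transcripts have 6042 and 3888 bases. For Stat2 the lengths were nearly alike, at 4481 and 4403 bases.

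Scaled to the longest transcript instead, an alternative chosen after seeing these lengths, Stat3 moved to the second place. RPKM computed from the deposited counts and the transcript lengths were then 74.2 and 79.3 for Stat6, 27.3 and 31.4 for Stat3, and 17.8 and 20.4 for Stat5b in CHBP- and CHBP+ M-MDSC. They were 15.5 and 14.7 for Stat5a, 13.3 and 14.8 for Stat4, and 12.01 and 14.3 for Stat2. On this scale the counting intervals of Stat4 and Stat2 overlapped in CHBP- M-MDSC, and those of Stat4, Stat5a and Stat2 overlapped in CHBP+ M-MDSC. The leading place of Stat6 held on both scales, and the places below it depended on the length used.

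**Figure D1:**
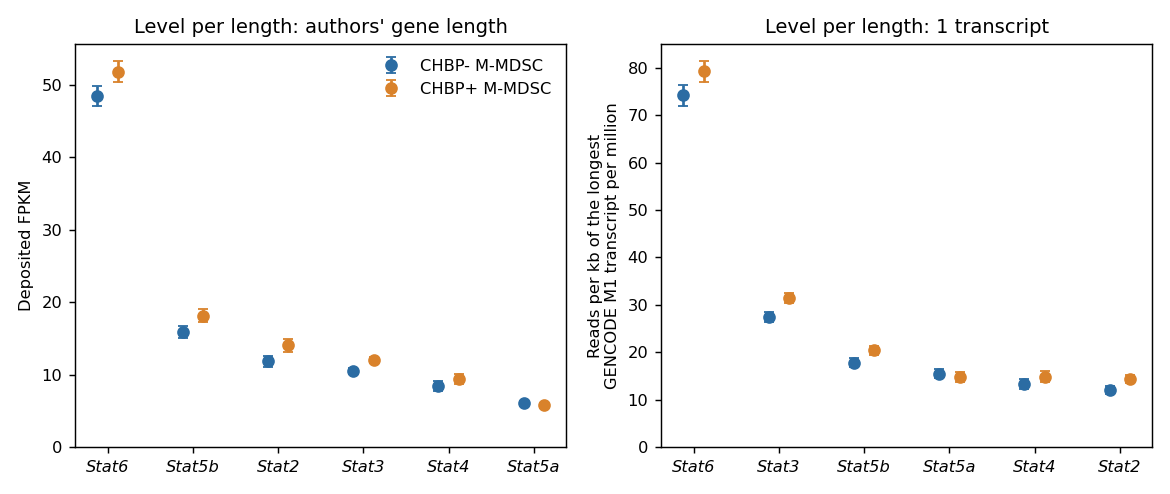
Levels of the 6 Stat genes in CHBP- (blue) and CHBP+ M-MDSC (orange), as deposited FPKM (left) and as RPKM over the longest GENCODE M1 transcript (right), with 95% Poisson intervals for counting error and 1 library per condition. Stat6 is the highest in both panels, and Stat3 lies below Stat5b and Stat2 on the left (10.5 FPKM in CHBP- M-MDSC) and above them on the right (27.3 RPKM).

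The 6 genes differed little between the libraries. The log2 ratio compares the CPM of a gene with CHBP to that without, on the log2 scale, where gene length cancels, with an exact Clopper-Pearson 95% interval that covers counting error only. None of the 6 genes was 1.5-fold higher or lower, the fold threshold of the study's methods, against 6.50% of the genes kept that were at least 1.5-fold higher and 5.54% at least 1.5-fold lower. The counting intervals of all 6 genes lay between 0.871-fold and 1.30-fold, so that 1.5-fold was outside every one of them. Without replicates there is no spread between cultures to set these ratios against.

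Of the 6 genes, 5 were higher and 1 was lower in CHBP+ M-MDSC, and 46.3% of the genes kept were higher. Their median log2 ratio was 0.18, beside -0.03 over the genes kept. A two-sided exact binomial test of each gene's reads against the library totals was run over 14162 genes with at least 10 reads, with Benjamini-Hochberg adjustment. This test compares the 2 libraries and not the conditions. By it, 4 of the 6 genes were higher at an adjusted p of at most 0.05 and none was lower, and it called 21.9% of the genes tested higher and 22.2% lower. The 6 genes summed to 11390 reads without CHBP and 12371 with it, or 691 and 760 CPM, and their log2 ratio was 0.14 (0.10 to 0.17).

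Stat2, which joins Irf9 in the interferon-activated complex ISGF3, had 872 reads without and 1023 reads with CHBP. This was the largest ratio of the 6 genes, with a log2 ratio of 0.25 (0.12 to 0.38) and an adjusted p of 0.000719 in the exact binomial test. Its deposited position is chromosome 10 from 128270576 to 128292849 (ENSMUSG00000040033), on the GRCm38 position of the RefSeq gene. No other listed gene overlaps that span.

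The RefSeq window upstream of Stat2 is shown because it was one of the 2 promoter windows among the 9 of these genes that held an interferon-type motif. Windows of 250 bases before and 50 after a RefSeq start (GRCm38.p6) were searched on both strands for GAAA followed after any 2 bases by GAAA, the core that ISGF3-type factors bind, and for TTC followed by GAA after any 3 or any 4 bases, the spacings that STAT pairs and STAT6 bind. The 250 bases before the Stat2 start are chr10:128270248-128270497 on the plus strand, with the matches in capitals. The first run of capitals is the GAAA pair read on the opposite strand, and the second is TTC and GAA 4 bases apart.
Stat2 upstream: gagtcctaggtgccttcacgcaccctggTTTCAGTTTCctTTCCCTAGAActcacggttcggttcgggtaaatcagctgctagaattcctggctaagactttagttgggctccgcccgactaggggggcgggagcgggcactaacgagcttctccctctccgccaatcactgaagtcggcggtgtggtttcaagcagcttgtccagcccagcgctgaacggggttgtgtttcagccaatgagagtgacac
The GAAA pair was present in 3.44% of all 32851 windows and, among these genes, in windows of Stat2 and Stat4. TTC and GAA 4 bases apart were present in 6.95% of all windows and in that of Stat2 alone among the 9. TTC and GAA 3 bases apart were present in 8.30% of all windows and in none of the 9. A match describes letters in the window and is not evidence of binding.

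Stat3, the factor of IL-6 and G-CSF signalling, had 2724 reads without and 3088 reads with CHBP. Its log2 ratio was 0.20 (0.12 to 0.27), with an adjusted p of 8.56e-07 in the exact binomial test. Stat5b, one of the STAT5 genes, had 1531 and 1733 reads, a log2 ratio of 0.20 (0.10 to 0.30) with an adjusted p of 0.000389 in the same exact test. Stat6 had 4618 and 4874 reads, and its log2 ratio of 0.10 (0.04 to 0.15) was the smallest of the 4 that passed the exact test (adjusted p = 0.00384).

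The remaining pair did not pass the exact binomial test. Stat4, the factor of IL-12 signalling and best known in T and NK cells, had 654 reads without and 720 reads with CHBP. Its log2 ratio was 0.16 (0.00 to 0.31) with an adjusted p of 0.0935 in that exact test. Stat4 was at 8.41 and 9.38 FPKM, and which cells its reads came from was not tested. Stat5a, the other STAT5 gene, had 991 and 933 reads, a log2 ratio of -0.07 (-0.20 to 0.06) with an adjusted p of 0.425 in the same exact test, and was the 1 gene of the 6 below 0.

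**Figure D2:**
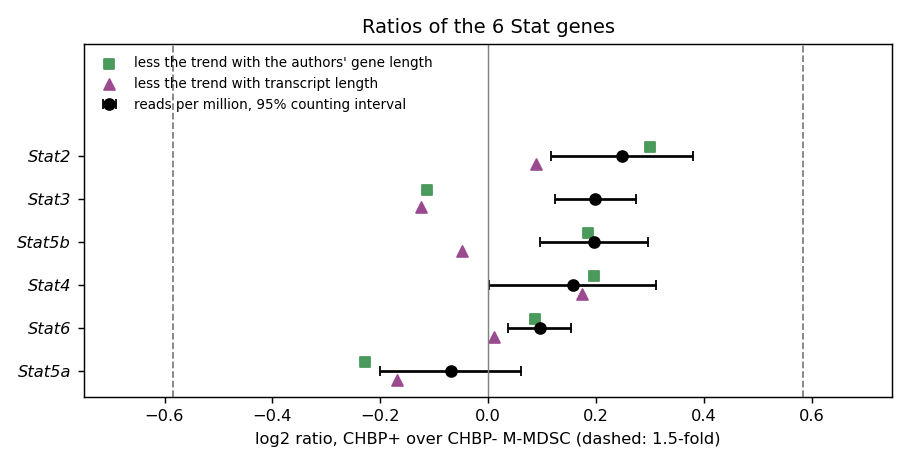
Log2 ratio of each Stat gene, CHBP+ over CHBP- M-MDSC, with its 95% Clopper-Pearson counting interval (black), and the same ratio less the trend with the authors' gene length (green squares) or with the longest transcript (purple triangles). All intervals lie inside the dashed 1.5-fold lines, and Stat3 moves from 0.20 to -0.11 and -0.13 once a trend is taken off.

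The ratios of these genes have to be read beside a trend with gene length that ran through both libraries. Taken across the 10948 genes kept, the log2 ratio and the authors' gene length had a Spearman's rho of 0.47, and with the length of the longest GENCODE M1 transcript, known for 10211 genes, rho was 0.68. Genes are no replicates, and all points share the same 2 libraries. The trend, a fitted cubic curve, was at 0.31 for the authors' length of Stat3, 0.16 for Stat5a, 0.01 for Stat5b, 0.01 for Stat6, -0.04 for Stat4 and -0.05 for Stat2. Less this trend, 4 genes were above 0 and 2 below, with Stat2 at 0.30, Stat4 at 0.20, Stat5b at 0.19, Stat6 at 0.09, Stat3 at -0.11 and Stat5a at -0.23.

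With the longest transcript in place of the authors' length, 3 genes were above the trend and 3 below. Stat4 was then at 0.17, Stat2 at 0.090, Stat6 at 0.011, Stat5b at -0.048, Stat3 at -0.13 and Stat5a at -0.17, with a median of -0.019. The SD of the genes around these curves was 0.44 and 0.35, larger than the distance of any of the 6 genes from them. Stat2, Stat4 and Stat6 stayed above 0 and Stat5a below 0 on both curves, whereas Stat3 changed sign on both and Stat5b on the second.

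**Figure D3:**
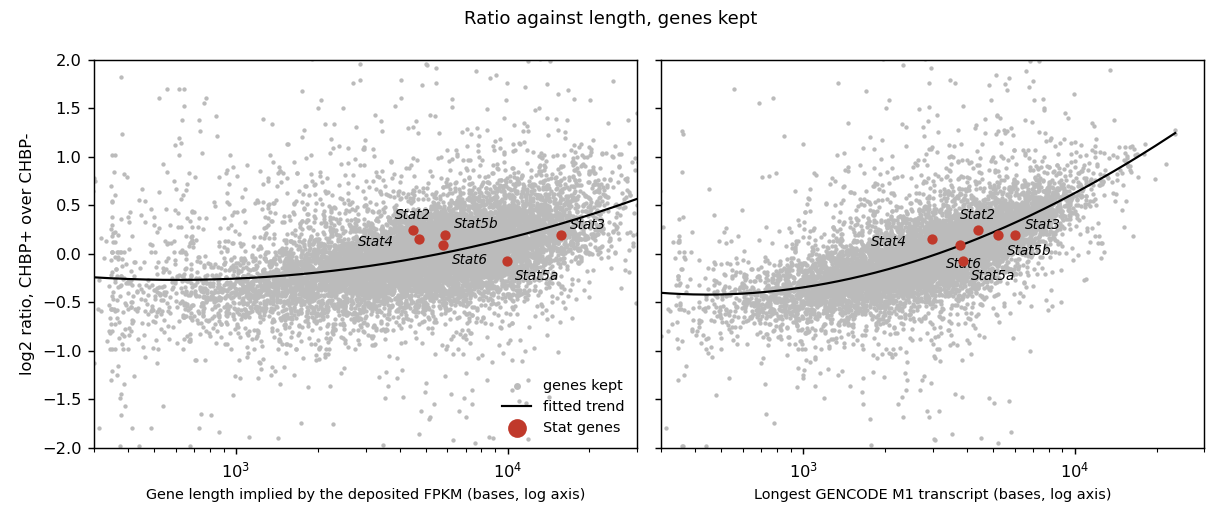
Log2 ratio (CHBP+ over CHBP-) of the genes kept (grey) against the gene length implied by the deposited values (left) or the longest GENCODE M1 transcript (right), on log axes in bases, with the fitted cubic trend (black) and the 6 Stat genes (red). The curve rises with length in both panels, Stat3 and Stat5a lie below it in both, and 58 genes kept lie beyond the vertical limits of 2.

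Stat5b, Stat5a and Stat3 are neighbours on chromosome 11 and lie in one cluster of 158810 bases in the deposited coordinates. Stat5b (ENSMUSG00000020919) runs from 100780731 to 100850724 on the minus strand, Stat5a (ENSMUSG00000004043) from 100859351 to 100885169 on the plus strand, and Stat3 (ENSMUSG00000004040) from 100885098 to 100939540 on the minus strand. Stat5b and Stat5a are 8626 bases apart in the deposited coordinates, whereas the RefSeq span of Stat5b ends at 100859004, nearer to Stat5a. Stat5a and Stat3 meet at their 3′ ends and overlap by 72 bases, whereas the RefSeq spans of this pair leave a gap of 1636 bases on the same build. In 75-base windows of GENCODE M1 protein-coding transcripts, Stat3 shared none with another gene on either strand. An overlap of 72 bases is too short to hold such a window, so this does not bear on reads that reach into it.

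Before the length trend was removed, Stat5b and Stat3 each had a log2 ratio of 0.20 and Stat5a, between them, of -0.07. With either trend removed Stat3 lay nearer to Stat5a than to Stat5b, as the values above show. Stat5b took 60.7% (58.8% to 62.6%) of the summed Stat5a and Stat5b reads in CHBP- M-MDSC and 65.0% (63.2% to 66.8%) in CHBP+ M-MDSC, and these intervals did not overlap. Stat3 took 73.3% (71.9% to 74.7%) of the summed Stat3 and Stat5a reads in CHBP- M-MDSC and 76.8% (75.5% to 78.1%) in CHBP+ M-MDSC, again without overlap. The share of Stat5b in the sum of Stat3 and Stat5b was 36.0% (34.5% to 37.4%) and 35.9% (34.6% to 37.3%). Such shares are taken within a library and do not depend on how the libraries are scaled, and their intervals cover counting error only. They still carry the length trend. By the authors' length it was at 0.31 for Stat3, 0.16 for Stat5a and 0.01 for Stat5b, and by transcript length at 0.32, 0.099 and 0.24. Beyond Stat5b, Ghdc lies 9773 bases away and had 385 and 349 reads, a log2 ratio of -0.12 (-0.34 to 0.09).

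**Figure D4:**
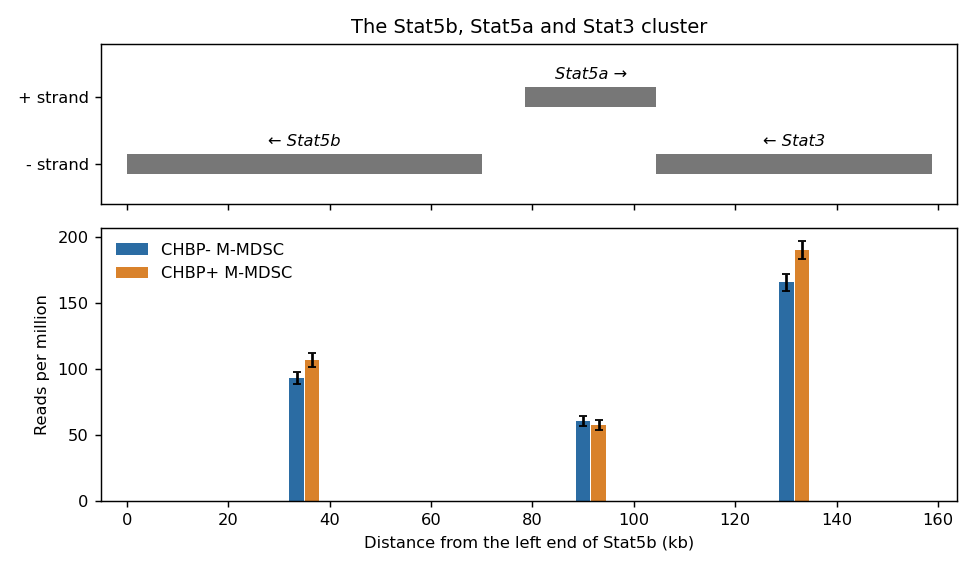
Map of the Stat cluster (top), with gene spans to scale in kilobases from the left end of Stat5b, strand on the vertical axis and arrows for the direction of transcription, and CPM of each gene (bottom) in CHBP- (blue) and CHBP+ M-MDSC (orange) with 95% Poisson counting intervals. Stat5b goes from 92.9 to 106 and Stat3 from 165 to 190 CPM, whereas Stat5a goes from 60.1 to 57.3.

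Stat5a and Stat5b are related copies, and a small part of their transcript sequence cannot be told apart at the read length. Their coding sequences in GENCODE M1 were identical at 90.6% of 2292 aligned bases, against 58.3% to 64.8% for the other 14 pairs of these genes. Of the distinct 75-base windows of the transcripts, the read length of the study, 387 were present in both genes, which is 9.27% of those of Stat5a and 7.08% of those of Stat5b. No other gene with GENCODE M1 protein-coding transcripts shared such a window with any of the 6, and other kinds of gene were not searched. The longest run shared by the coding sequences has 324 bases, from base 571 to base 894 counted from the start codon in both. The next has 129 bases, from base 441 to base 569 in both, and is shown because a read that falls within it cannot be assigned to one gene.
Stat5a and Stat5b shared run: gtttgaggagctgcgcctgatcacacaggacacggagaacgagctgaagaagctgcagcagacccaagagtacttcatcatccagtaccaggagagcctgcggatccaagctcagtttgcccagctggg
How the authors assigned reads that fit more than one place is not given in the sources used here. Summed, Stat5a and Stat5b had 2522 reads without and 2666 reads with CHBP, a log2 ratio of 0.10 (0.02 to 0.18). Stat3, Stat5a and Stat5b together had 5246 and 5754 reads, a log2 ratio of 0.15 (0.10 to 0.21).

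The likeness of the Stat5 genes was also seen before a RefSeq start of each. Each has 2 RefSeq starts in the promoter table (GRCm38.p6), and in 1 window of each a stretch of 92 bases aligned with 74 of 90 paired bases identical (82.2%). The stretches are shown to let the copies be compared, with the bases that differ or lack a partner in capitals. That of Stat5a is chr11:100860381-100860472 on the plus strand, and that of Stat5b is chr11:100822573-100822664 on the minus strand, and each lies inside the deposited span of its gene.
Stat5a upstream: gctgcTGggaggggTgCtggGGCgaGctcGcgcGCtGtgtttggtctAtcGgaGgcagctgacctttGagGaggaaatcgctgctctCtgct
Stat5b upstream: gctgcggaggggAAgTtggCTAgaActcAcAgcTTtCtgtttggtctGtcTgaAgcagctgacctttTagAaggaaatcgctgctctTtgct

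Stat4 and Stat6 overlap other listed genes. Stat4 (ENSMUSG00000062939, chromosome 1 from 51987148 to 52107189) shares 29929 bases of its span with Gm28177, which had 367 reads without and 589 reads with CHBP. The log2 ratio of Gm28177 was 0.70 (0.51 to 0.89), above that of Stat4. Summed, Stat4 and Gm28177 had 1021 and 1309 reads, and the log2 ratio was 0.38 (0.26 to 0.50), outside the interval of Stat4 alone. Stat6 (ENSMUSG00000002147, chromosome 10 from 127642986 to 127660957) overlaps Nab2 by 40 bases. Nab2 had 781 and 731 reads, and the sum with Stat6 gave a log2 ratio of 0.07 (0.02 to 0.13). How reads in the overlaps were counted was not tested.

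Around the Stat genes, most receptors, kinases and inhibitors of the pathway were present and few were 1.5-fold apart. These lists were chosen with earlier results of these data known, and their counts are descriptions. Over all genes, 10948 of 34745 were kept. Of those kept, 46.3% were higher, 6.50% at least 1.5-fold higher and 5.54% at least 1.5-fold lower. The read test called 21.9% of those tested higher and 22.2% lower. Each count below stands beside these shares. Each list is also given less the trend with the authors' gene length. The trend with transcript length was not taken off the lists. The share of all genes kept that lay above the trend with the authors' length was not counted. Counts above and below that trend therefore stand without such a share. Of 4 Janus kinases, all were kept, 3 were higher and the same 3 passed the read test, with a median log2 ratio of 0.17, or 0.19 less the trend. Jak2, the kinase of the GM-CSF and erythropoietin receptors, had 6971 and 8059 reads, or 84.1 and 98.4 FPKM, a log2 ratio of 0.23 (0.18 to 0.27). Jak1, which serves interferon and IL-6 type receptors, had 5947 and 7581 reads and the largest ratio of the kinases at 0.37 (0.32 to 0.42). Less the trend, Jak1 was at 0.23 and no longer the largest, with Jak2 at 0.25. Tyk2 had 1984 and 2115 reads (log2 ratio 0.11), and Jak3, the partner of the common gamma chain, had 327 and 288 reads (log2 ratio -0.17, -0.40 to 0.07).

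Of 33 receptor genes, 23 were kept, of which 12 were higher and 11 lower, 1 was at least 1.5-fold higher and 1 at least 1.5-fold lower, and 9 higher and 7 lower passed the read test. The median log2 ratio of the receptors was 0.00, and less the trend it was 0.07, with 14 genes above 0 and 9 below. Csf2rb, the shared beta chain of the GM-CSF receptor, was the most abundant at 715 and 903 FPKM, with a log2 ratio of 0.34 (0.32 to 0.35). The related Csf2rb2 followed at 264 and 324 FPKM (0.29). Csf2ra, the chain specific to GM-CSF, was at 101 and 87.4 FPKM, with a log2 ratio of -0.20 (-0.28 to -0.13) that was -0.0028 less the trend. Il6st, the gp130 chain through which IL-6 reaches Stat3, went from 1106 to 1762 reads (0.69, 0.58 to 0.80), and Il10ra, whose ligand also acts on Stat3, from 2140 to 1292 reads (-0.71, -0.81 to -0.61). Less the trend, Il6st was at 0.34 and no longer 1.5-fold higher, and Il10ra was at -0.81. Il7r was at 43.1 and 51.9 FPKM (0.27). Epor, the erythropoietin receptor, had 17 and 10 reads, under 1 FPKM in both libraries, too few for a ratio.

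All 18 inhibitors were kept, with 10 higher, 8 lower and none 1.5-fold apart, and 6 passed the read test in each direction. Their median was 0.05, and less the trend it was -0.045, with 7 genes above 0 and 11 below. Ptpn6, a phosphatase that dampens JAK signalling, was at 69.6 and 61.3 FPKM (log2 ratio -0.18), and Socs3, the feedback inhibitor induced by Stat3, at 38.3 and 34.2 FPKM (-0.16, -0.25 to -0.07). Less the trend, Ptpn6 was at -0.16 and Socs3 at -0.048. Of 8 partners and cofactors, 5 were higher, all 5 past the read test, with 3 of them at least 1.5-fold higher and 1 gene at least 1.5-fold lower. The median of the partners was 0.54, and 0.26 less the trend. The 3 were the coactivators Ep300 (1599 and 2913 reads, 0.88) and Ncoa1 (504 and 782 reads, 0.65) and the nuclear import factor Kpna1 (530 and 806 reads, 0.62). Nmi, an interferon-inducible protein that binds STAT proteins, was the lower one, with 397 and 213 reads (-0.88, -1.13 to -0.64). Ndufa13, also known to restrain STAT3, was the most abundant partner at 39.3 and 26.7 FPKM (-0.56). Irf9, the partner of Stat2, had 677 and 611 reads (-0.13, -0.29 to 0.03). Less the trend, Ep300 was at 0.52, Ncoa1 at 0.58 and Kpna1 at 0.41, all 3 under 1.5-fold, and Nmi was at -0.78.

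Genes known as STAT targets were looked up for each factor. Of 12 STAT5 targets, 10 were lower and 2 higher, with a median log2 ratio of -0.14, and 6 lower and 2 higher passed the read test. Less the trend, 7 were below 0 and 5 above, with a median of -0.15. Pim1, a kinase gene and the most abundant of them, was at 236 and 212 FPKM (log2 ratio -0.15), and Id2 at 175 and 157 FPKM (-0.16). Less the trend, Pim1 was at -0.0021 and Id2 changed sign, to 0.081. Bcl2l1, which encodes the survival factor Bcl-xL, went from 893 to 358 reads (-1.30, -1.48 to -1.12), and stood at -1.52 less the trend. This larger difference rests on the authors' length of Bcl2l1, 11905 bases, where the trend was at 0.22. By its longest transcript the trend for Bcl2l1 was negative, so taking that trend off would shrink the difference. Cish, a classical STAT5-induced inhibitor, had 3432 and 3120 reads (-0.12, -0.19 to -0.05), and was at -0.31 less the trend with the authors' length.

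Of 13 STAT3 targets, 10 were lower and 3 higher, with a median of -0.30, and 9 lower and 2 higher passed the read test. Less the trend, the median was -0.17, with 10 genes below 0 and 3 above, counts that have no share over all genes beside them. S100a9 and S100a8, the alarmins of neutrophils and monocytes, were at 1269 and 937 FPKM (-0.44) and at 576 and 391 FPKM (-0.56). Lcn2, a neutrophil granule protein, went from 10691 to 7024 reads (-0.59, -0.63 to -0.54), the 1 gene of this list at least 1.5-fold lower. Less the trend, S100a9 was at -0.17, S100a8 at -0.31 and Lcn2 at -0.56, under 1.5-fold. These are also genes of granulocytes. The granulocytic list summed to 165 and 122 FPKM, with all 5 of its genes lower, where 46.3% of the genes kept were higher. Of these, Ly6g (46 and 44 reads) and Camp (22 and 17 reads) rest on few reads. The length trend was not taken off the granulocytic list, so its 5 ratios still carry that trend. The part of granulocytes in the values of the STAT3 targets was not tested.

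**Figure D5:**
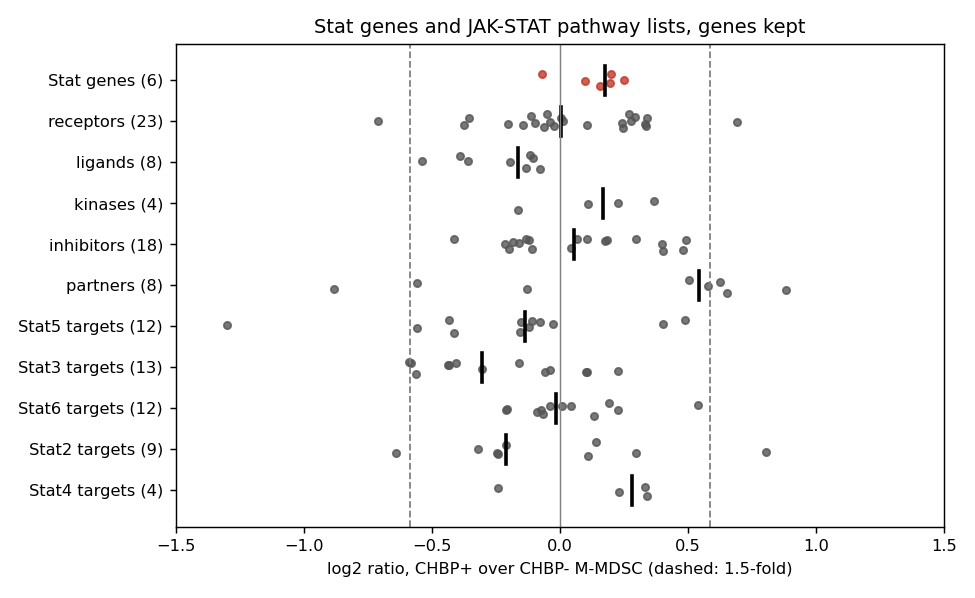
Log2 ratios (CHBP+ over CHBP- M-MDSC) of the 6 Stat genes (red) and of the genes kept in 10 pathway lists (grey), with the number of genes beside each name, the median as a black bar and 1.5-fold as dashed lines. The Stat genes fall between -0.07 and 0.25, and the median is 0.54 for the partners and -0.30 for the Stat3 targets, which less the trend with gene length (not plotted) become 0.26 and -0.17.

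Of 13 STAT6 targets, 12 were kept, of which 6 were higher and 6 lower and none 1.5-fold apart, with a median of -0.02, and 3 higher and 1 lower passed the read test. Less the trend, 10 were above 0 and 2 below, with a median of 0.22. Without the share of all genes kept above the trend, these 2 counts cannot be read as a trait of the STAT6 targets. Chil3 was at 530.4 and 546 FPKM (0.04) and Arg1, the arginase of suppressive myeloid cells, at 399.6 and 401 FPKM (0.01, -0.03 to 0.05), and less the trend both were at 0.23. Of 15 targets of the STAT2-containing complex, 9 were kept, with 4 higher and 5 lower and a median of -0.21, or -0.073 less the trend. The largest differences there were Mx1, an antiviral protein, from 83 to 143 reads (0.80, 0.40 to 1.21), and Isg15, an interferon-induced modifier, from 172 to 109 reads (-0.64, -0.9998 to -0.29), and 1 higher and 2 lower genes passed the read test. Less the trend, Mx1 was at 0.82 and Isg15 at -0.37, under 1.5-fold. Oas1a, a sensor of double-stranded RNA, was at 13.0 and 10.98 FPKM (-0.25, and -0.049 less the trend). Of 7 STAT4 targets, 4 were kept, 3 of them higher and past the read test, with a median of 0.28. Less the trend, 2 were above 0 and 2 below, with a median of 0.090. Furin was at 15.6 and 18.2 FPKM (0.23) and Il18rap, a chain of the IL-18 receptor, at 10.4 and 13.1 FPKM (0.34), and less the trend they were at -0.085 and 0.27. Ifng had no read in either library.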

How the data were processed

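Reads were single-end and 75 bases long. The authors removed adapters, low-quality ends, short reads and ribosomal reads, and deposited the raw count of reads per gene and its FPKM, which the authors computed as the count over the library's total count and a length of the gene. The paper's methods name TopHat2, HT-seq and mm9. The submitters' processing notes name HISAT2 2.0.4, Cufflinks 2.1.1 and GRCm38, where the deposited coordinates of the 6 genes lie. Strand and multi-mapping in counting are not given in the sources used here.

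With 1 library per condition no model of the counts between conditions could be fitted. Log2 ratios used CPM, with 0 reads set to 3, and exact Clopper-Pearson or Poisson intervals for counting error only. Reads are not independent molecules. Trends with length were least-squares cubic polynomials on log2 length, and 93.3% of the genes kept had a GENCODE M1 transcript. Alternatives were pseudocounts of 1 and 0.1 FPKM, centring on the median gene, the TMM factors of edgeR 4.0.16, the size factors of DESeq2 1.42.0, other filters and a 2-fold threshold. Of each list, genes at least 1.5-fold apart (up to 4), the 2 most abundant and some fixed by name are named. The genes and lists were chosen with earlier results of these data known. 1 further Stat gene is not reported here. Calculations used Python 3.11.15 (numpy 2.4.6, scipy 1.17.1, Biopython 1.88) and were tested on simulated data.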

Additional observations from a re-analysis of the deposited data

How the results depend on the processing

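Of 48 recalculated ratios of the 6 genes, 40 stayed within the counting interval of the value reported. Median centring, TMM factors and DESeq2 size factors shift every ratio alike, by 0.034, 0.014 and 0.0024. These shifts are smaller than the distance of any of the 6 ratios from its bounds, so these settings could not leave an interval. The count of 40 therefore does not measure robustness. With the trend with the authors' gene length removed, Stat3 reversed to -0.11 and Stat5a moved to -0.23. With the trend with transcript length removed, an alternative added after seeing the data, Stat3 reversed to -0.13, Stat5b to -0.048 and the median of the 6 genes to -0.019, while Stat2 moved to 0.090 and Stat6 to 0.011. Summed reads, which differ by construction, gave 0.10 for Stat5a with Stat5b and 0.38 for Stat4 with Gm28177 (added after seeing the overlap). The pseudocounts, median centring, TMM factors and DESeq2 size factors left every Stat ratio within its interval, and no alternative run put any of the 6 genes at 1.5-fold. Genes kept at least 1.5-fold higher and lower numbered 374 and 316 with a pseudocount of 1 FPKM, 333 and 239 with the transcript-length trend removed, 302 and 296 at 5 FPKM or more, 217 and 129 at 2-fold, and 2817 and 2260 with no filter, against 712 and 606. The cause of these shifts was not tested beyond the settings themselves. No paired analysis was possible because each condition has 1 library, and no replicate could be left out.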

Other observations

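Of 25 genes of cytokines whose receptors act through STAT proteins, 8 were kept, beside 10948 of all 34745 genes. All 8 had a lower CPM in CHBP+ than in CHBP- M-MDSC, with a median log2 ratio of -0.16, where 46.3% of all genes kept were higher. Less the trend with gene length, 5 of the 8 were below 0 and 3 (Il27, Il15 and Osm) above, with a median of -0.050. The share of all genes kept above that trend was not counted. Only Il12a, a subunit of IL-12 and so a ligand gene of the Stat4 pathway (535 and 364 reads, -0.54, -0.73 to -0.34), and Ebi3, a subunit of IL-27 (1236 and 952 reads, -0.36, -0.48 to -0.24), passed the exact binomial read test among these 8, which called 22.2% of all genes tested lower, and less the trend they were at -0.47 and -0.11. Osm, a cytokine of the IL-6 family, was at 20.3 and 19.2 FPKM (-0.08, -0.22 to 0.06). Csf2, which encodes GM-CSF, had 1 and 2 reads, and Epo had none in either library.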
